A study of Mus musculus with 10 samples.

Results

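The Ring1b peaks of mouse ESCs and of NSCs were compared as intervals, and each peak was placed in a class by whether it shared at least 1 bp with a peak of the other list. The ESC list held 2335 peaks and the NSC list 1389, together 3724 of the 9769 peaks in the 6 lists of the series. In ESCs 1878 peaks had no NSC counterpart (ESC only) and 457 did (ESC shared). In NSCs 890 peaks had no ESC counterpart (NSC only) and 499 did (NSC shared). Peaks of both lists that were joined by overlap formed 439 shared regions. The study measured histone H3.3 turnover in ESCs and in differentiated cells, and Polycomb-Group (PcG) binding was mapped by ChIP-seq to relate turnover to repressed loci. J1 ESCs, a mouse line, were grown on inactivated fibroblast feeders with serum and LIF, and the feeders were depleted at harvest. NSCs were derived from the same J1 line in culture and kept on gelatin with EGF and FGF. Both were untreated, were cross-linked with formaldehyde and were precipitated with an antibody to RNF2, another name of Ring1b. The paper, but not the sample labels, also gives an earlier EGS cross-linking step for Ring1b. Each cell type had 1 Ring1b library and an input of its own.

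Ring1b is the catalytic subunit of Polycomb repressive complex 1 (PRC1), an E3 ligase that attaches ubiquitin to histone H2A. PRC2, through Ezh2, deposits H3K27me3, which Cbx subunits of one form of PRC1 bind. In ESCs these complexes are known to occupy CpG islands of developmental regulators, most of which are silent until a lineage is chosen.

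The lists give the start and end of each peak on mm9, in steps of 200 bp and with a smallest width of 1000 bp, and carry no height, score or read count. The depth of each library is therefore unknown, and where no peak is listed the signal stayed below the authors' calling threshold. With 1 library per cell type, a difference between the lists has no replicate check, no test was made, and the libraries cannot be told apart from the cell types. Intervals in parentheses are exact 95% Clopper-Pearson intervals over peaks or genes and cover counting error only. Neighbouring genes can share a peak, as in the Hox clusters, and intervals over genes, which count each gene singly, are too narrow for that. No expression data were used, so the peaks do not check the identity of the cells.

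Sequences from the loci where the classes were widest show the DNA under the peaks, although short windows vary within a peak. All are from mm9, written 5′ to 3′ on the strand given, with each CpG in capitals. At the start site of Nr2f2, a nuclear receptor gene under the widest ESC only peak, the window of 250 bases before and 50 after the start (chr7:77511572-77511871, minus strand) held 2 CpGs. The same window at Hoxd11, a homeobox gene in the region with most bases under both lists (chr2:74517199-74517498, plus strand), held 4. At Igf2bp1, under the widest NSC only peak with a single start site, it held 20 (chr11:95867205-95867504, minus strand, bases not printed).
Nr2f2, ESC only: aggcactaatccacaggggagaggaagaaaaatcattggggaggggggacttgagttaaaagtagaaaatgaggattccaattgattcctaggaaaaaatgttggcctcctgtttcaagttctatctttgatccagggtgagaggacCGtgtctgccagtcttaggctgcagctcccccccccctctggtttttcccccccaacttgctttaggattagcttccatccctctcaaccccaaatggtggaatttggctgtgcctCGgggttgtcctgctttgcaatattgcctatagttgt
Hoxd11, shared: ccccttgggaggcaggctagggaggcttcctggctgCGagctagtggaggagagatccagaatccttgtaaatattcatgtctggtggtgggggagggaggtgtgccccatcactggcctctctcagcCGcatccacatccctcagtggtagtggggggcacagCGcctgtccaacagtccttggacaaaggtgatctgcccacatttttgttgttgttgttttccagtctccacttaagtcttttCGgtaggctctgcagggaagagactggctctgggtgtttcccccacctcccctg
The middle 300 bases of the widest NSC only peak away from start sites (chr12:73978251-73978550, plus strand), an intergenic stretch whose peak ended 49531 bp from the start site of Six6, held 1. Compared like for like, outside annotated exons, the CpG-richest 300 bases held 60 CpGs in the Nr2f2 peak, 38 in the Hoxd region and 10 in the distal NSC only peak, a count added after the other windows were seen. The Nr2f2 window with 60 lies in an intron of that gene (chr7:77505921-77506220, plus strand). Over whole peaks there were 30.1 CpGs per kb at Nr2f2, 33.5 over the Hoxd region, 27.3 in the widest NSC only peak with a single start site, at Igf2bp1, and 5.77 in the distal NSC only peak.
Nr2f2 intron, ESC only: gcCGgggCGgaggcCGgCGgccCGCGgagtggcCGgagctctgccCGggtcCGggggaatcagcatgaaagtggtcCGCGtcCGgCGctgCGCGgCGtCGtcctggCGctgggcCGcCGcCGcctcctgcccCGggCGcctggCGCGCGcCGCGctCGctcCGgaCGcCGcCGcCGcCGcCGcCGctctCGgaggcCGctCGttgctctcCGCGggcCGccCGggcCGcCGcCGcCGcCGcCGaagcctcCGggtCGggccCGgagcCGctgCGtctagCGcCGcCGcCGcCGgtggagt
distal, NSC only: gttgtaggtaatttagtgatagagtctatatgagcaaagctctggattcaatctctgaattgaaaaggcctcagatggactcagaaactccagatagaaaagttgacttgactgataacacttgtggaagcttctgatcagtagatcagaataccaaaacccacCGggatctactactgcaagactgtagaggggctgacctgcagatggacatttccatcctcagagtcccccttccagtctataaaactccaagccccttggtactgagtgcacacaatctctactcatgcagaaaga

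ESC only peaks, ESC shared peaks and NSC shared peaks were rich in GC and CpG, whereas most NSC only peaks were not. Median GC content was 59.0% in ESC only, 54.5% in ESC shared, 54.4% in NSC shared and 40.4% in NSC only peaks, against 41.8% in the genome. The median ratio of observed to expected CpGs was 0.648, 0.618, 0.644 and 0.199 in the same order. CpGs per kb had a median of 55.7 in ESC only and 7.55 in NSC only peaks, and the genome held 8.34 per kb. GC content was below 45% in 602 of the 890 NSC only peaks (67.6%) and in 15 of the 1878 ESC only peaks (0.799%).
Widths differed as well. The median was 2200 bp for ESC only, 4000 bp for ESC shared, 2000 bp for NSC shared and 1200 bp for NSC only peaks. Peaks at the smallest width of 1000 bp, which rest on a single enriched window, made up 38.8% of NSC only peaks (35.5% to 42.1%) and 9.32% of ESC only peaks (8.04% to 10.7%).

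**Figure D1:**
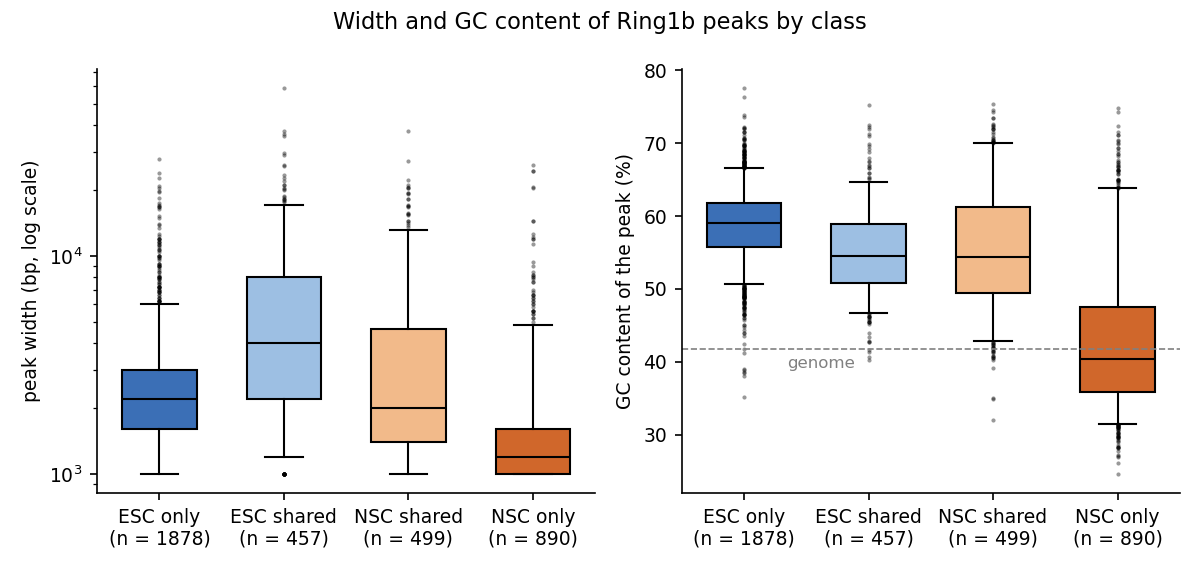
Width of each Ring1b peak in bp on a log scale (left) and its GC content in percent (right) for the 4 classes. Boxes span the quartiles with the median as a line, whiskers the 5th to the 95th percentile, points lie beyond them, and the dashed line is the genome. NSC only peaks have the lowest medians in both panels, 1200 bp and 40.4%.

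Most ESC peaks held or adjoined a gene start, and most NSC only peaks lay far from one. A protein-coding start site was inside 1143 of the ESC only peaks (60.9%, 58.6% to 63.1%), 315 of the ESC shared (68.9%, 64.5% to 73.1%), 244 of the NSC shared (48.9%, 44.4% to 53.4%) and 111 of the NSC only peaks (12.5%, 10.4% to 14.8%). With a start site up to 1 kb away counted as well, the shares were 70.8%, 74.0%, 62.7% and 18.7% in the same order. At the other end, 41.8% of NSC only peaks and 7.61% of ESC only peaks were over 50 kb from any start site. The median distance of NSC only peaks was 30064 bp. Their centres were intergenic in 59.6%, intronic in 32.6% and exonic in 7.87%, whereas ESC only centres were intergenic in 23.3%, intronic in 33.2% and exonic in 43.5%.
NSC only peaks were seldom flanks of ESC peaks. The nearest ESC Ring1b peak was a median of 377200 bp away, 42 (4.72%) lay within 5 kb of one and 693 (77.9%) over 100 kb from any.

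**Figure D2:**
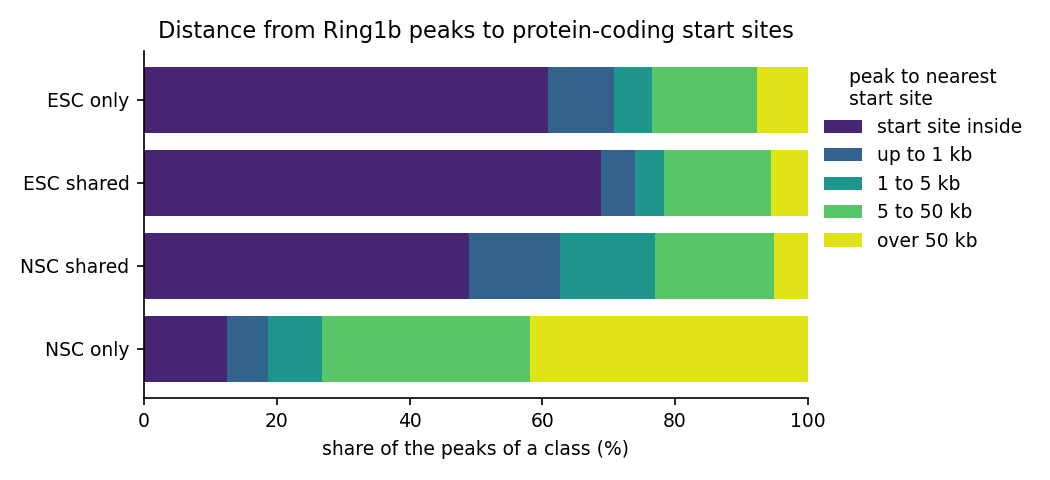
Share of the peaks of each class, in percent, by distance from the peak to the nearest protein-coding start site. A start site lies inside 60.9% of ESC only and 12.5% of NSC only peaks, and 41.8% of NSC only peaks are over 50 kb from one.

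The share of peaks with a counterpart differed with its width and its composition. Of ESC peaks of 1000 bp, 7.89% were shared (4.49% to 12.7%), and the share was 15.9% at 2000 to 4800 bp, 47.6% at 5000 to 9800 bp and 69.2% (60.5% to 77.0%) from 10000 bp. For NSC peaks it was 14.4% at 1000 bp, 56.5% at 2000 to 4800 bp and 78.6% (65.6% to 88.4%) from 10000 bp. GC content went in opposite directions in the lists. Below 40% GC, 4 of 434 NSC peaks were shared (0.922%), compared with 66.2% of the 213 NSC peaks at 60% or more. In ESCs 52.2% of the 138 peaks with 45% to 50% GC were shared and 11.0% of the 871 peaks at 60% or more. Width and GC content vary together across peaks, and their separate parts were not tested.

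The bases under both lists came to 1.65 Mb, which is 20.9% of the 7.90 Mb under ESC peaks and 45.9% of the 3.60 Mb under NSC peaks. Within the 439 shared regions they were 58.4% of the ESC bases and 84.8% of the NSC bases, and 314 of the 499 NSC shared peaks (62.9%) lay wholly inside an ESC peak. An ESC peak and an NSC peak paired singly in 379 regions, and in 44 regions 1 ESC peak met several NSC peaks. NSC peaks covered fewer bases than ESC peaks in 314 regions (71.5%), more in 103 (23.5%) and as many in 22. The median of the log2 ratio of NSC to ESC bases was -0.53 (-0.68 to -0.45, from order statistics over regions), with quartiles of -1.27 and 0.
Narrow regions did not follow this. In the 85 regions with 1000 to 1800 bp under ESC peaks the median log2 ratio was 0, with more NSC bases in 41 and fewer in 30. It was -0.81 at 2000 to 4800 bp, -1.06 at 5000 to 9800 bp and -0.64 from 10000 bp, where median coverage was 13900 bp in ESCs and 9100 bp in NSCs. A region cannot be narrower than 1000 bp in either list, which limits how far a narrow one can contract.

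**Figure D3:**
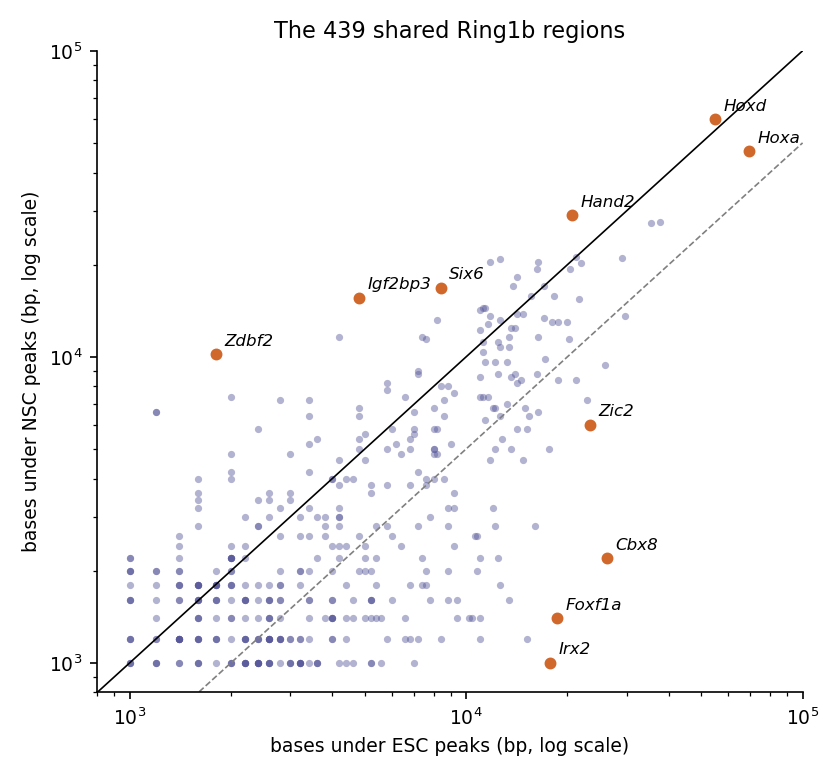
Bases under NSC peaks against bases under ESC peaks, both in bp on log scales, with 1 point for each of the 439 shared regions. The solid line marks equal coverage, the dashed line NSC coverage at 50% of ESC coverage, and 10 regions are named in orange. In 314 regions the point lies below the solid line, with Irx2, Foxf1a and Cbx8 farthest below among those named.

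The 10 regions with most shared bases held 15.8% of them, and lay in the 4 Hox clusters and at Dlx1 and Dlx2, Nkx2-3, Hand2, Uncx and Foxa1. The Hoxd region (chr2:74488201-74553200), which includes Evx2 and Hoxd13 to Hoxd3, had 54800 bp under ESC peaks, 59800 bp under NSC peaks and 49600 bp under both. Over Dlx1 and Dlx2, homeobox genes of forebrain interneurons, 21200 bp lay under peaks in each cell type and 20400 bp under both. At Foxa1, a factor of endoderm, there were 17000 bp in each and 16800 bp under both. At Nkx2-3 there were 20400 bp in ESCs and 19400 bp in NSCs, and at Uncx 22000 bp and 20200 bp. The regions at Dlx1 and Dlx2, Foxa1, Nkx2-3 and Uncx thus had almost the same extent in the lists, but others of the 10 did not. Coverage at Hand2 was 20600 bp in ESCs and 29000 bp in NSCs. The Hoxa, Hoxb and Hoxc regions had fewer bases in NSCs, with 69200 bp and 47000 bp in Hoxa and 37600 bp and 27600 bp in Hoxb.
The 4 Hox clusters were not alike, and Hox genes specify position along the body axis. Between the outer ends of their Hox genes, the NSC peaks covered 40.5% of the ESC bases in Hoxa, 54.7% in Hoxb, 65.3% in Hoxc and 66.4% in Hoxd. In Hoxa the start sites of Hoxa2 to Hoxa7 were under ESC peaks alone and 4 genes were under both. In Hoxc 7 genes were under both and Hoxc13 under ESC peaks alone, and Hoxc4 had no peak at its start. In Hoxb the genes under ESC peaks alone were Hoxb1, Hoxb3, Hoxb9 and Hoxb13, and in Hoxd they were Hoxd1 and Hoxd12.

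Coverage was most reduced at Cbx8, Hoxa, Zic2, Foxf1a and Irx2. The region at Cbx8, which encodes a PRC1 subunit that reads H3K27me3, had 26200 bp in ESCs and 2200 bp in NSCs. Foxf1a, a mesoderm factor, had 18600 bp and 1400 bp, and Irx2 17800 bp and 1000 bp. At these 3 genes the remaining NSC peak did not cover the start site. Zic2, a neural zinc finger factor, had 23400 bp and 6000 bp, and its start was still covered. The Hoxa region had 69200 bp in ESCs and 47000 bp in NSCs.
The 5 largest gains were at Igf2bp3, Shox2, Zdbf2, Six6 and Hand2. At Igf2bp3, a relative of Igf2bp1, coverage was 4800 bp in ESCs and 15600 bp in NSCs. At the imprinted gene Zdbf2 it was 1800 bp and 10200 bp, the highest ratio of the 5 with a log2 value of 2.50. Six6, an eye and pituitary homeobox gene, had 8400 bp and 16800 bp. The region of Shox2 and Rsrc1 had 11800 bp and 20400 bp, and that of Hand2, a heart and limb factor, 20600 bp and 29000 bp.

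By gene, the start sites of 1563 of 22208 protein-coding gene names (7.04%) were under an ESC peak and those of 386 (1.74%) under an NSC peak. Both lists covered 260 (1.17%), ESC peaks alone 1303 (5.87%) and NSC peaks alone 126 (0.567%). Of the genes under ESC peaks 16.6% (14.8% to 18.6%) were also under an NSC peak, and of the genes under NSC peaks 67.4% (62.4% to 72.0%) were under an ESC peak. A gene is counted by the base at its start, so under ESC peaks alone does not mean that the whole ESC peak lacked an NSC counterpart. Among the 1303 genes, 103 had their start in an ESC peak that met an NSC peak elsewhere along its length, as did 10 of the 126 genes with the lists exchanged. ESC peaks at the start sites had a median width of 5300 bp for genes under both and 2400 bp for genes under ESC peaks alone. For genes under both, the NSC peak was narrower in 180, wider in 65 and equal in 15.
CpG-rich starts were common to the gene classes. In the windows of 250 bases before to 50 after the start, the median number of CpGs was 23 for ESC alone, 22 for both, 25 for NSC alone and 10 for genes under neither list.

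Developmental transcription factors were under ESC peaks far more often than other genes, and those under NSC peaks were nearly always under ESC peaks too. In 18 lists of such factors, 183 of 244 names (75%) were under an ESC peak, compared with 6.28% of the 21964 other names. Of the factors, 88 were under both and 95 under ESC peaks alone. Under NSC peaks alone there was 1, Tcf15, a mesoderm factor, with a peak of 1400 bp. Of the 183 genes, 48.1% (40.7% to 55.6%) were also under an NSC peak, compared with 12.5% (10.8% to 14.3%) of the 1380 other genes under ESC peaks. ESC peaks were wider at these factors, with a median of 9200 bp. At 5000 to 9800 bp, 26 of 53 of the factors were also under an NSC peak (49.1%), against 25 of 107 genes outside these lists and the signal and neuronal lists (23.4%). From 10000 bp the shares were 57 of 89 (64.0%, 53.2% to 73.9%) and 28 of 61 (45.9%, 33.1% to 59.2%), and at 2000 to 4800 bp they were 12.8% of 39 and 11.5% of 693.

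**Figure D4:**
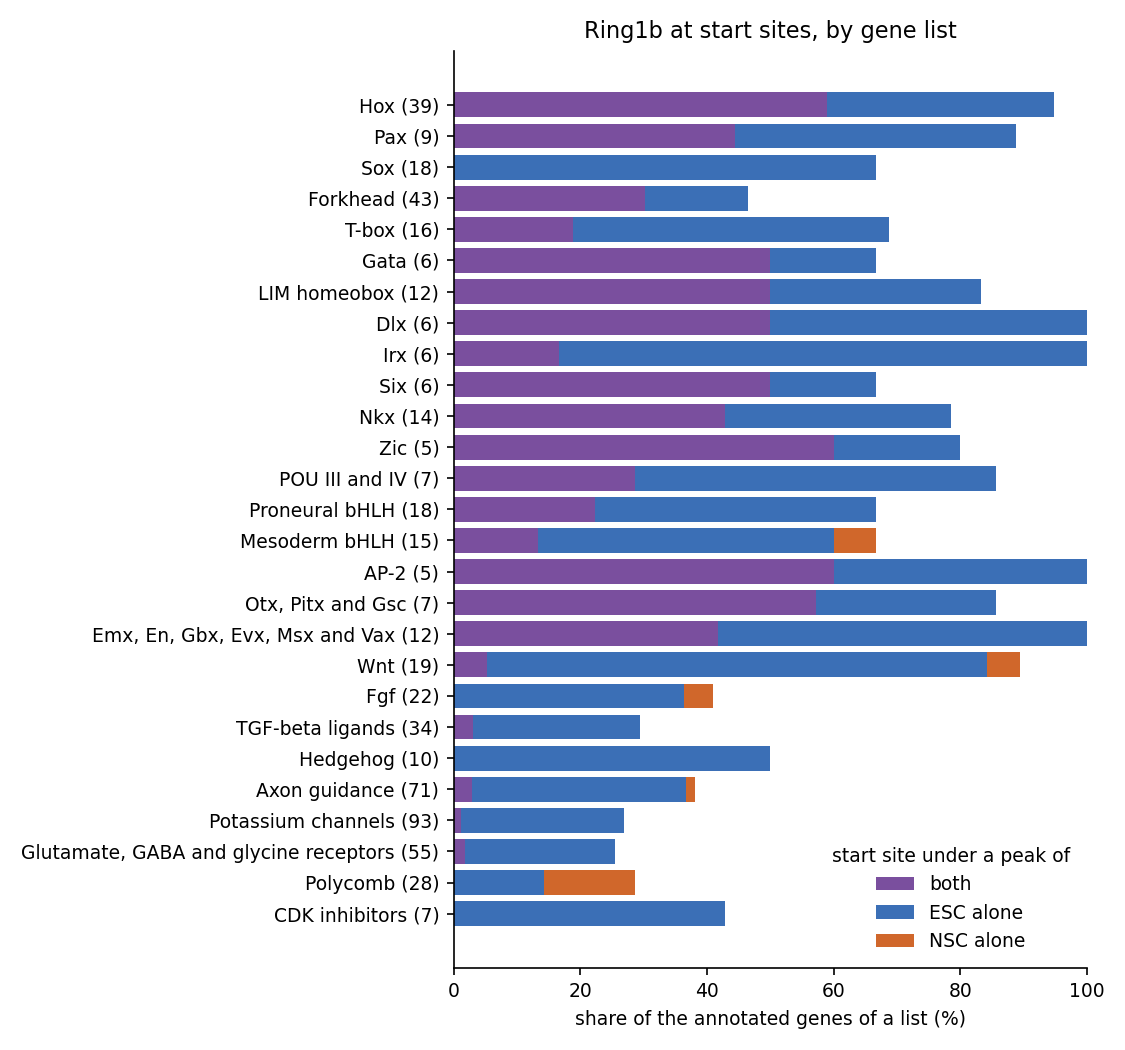
Share of the annotated genes of each list, in percent, whose start site lies under Ring1b peaks of both cell types (purple), of ESCs alone (blue) or of NSCs alone (orange), with the number of annotated genes in parentheses. Factor lists such as Hox, Zic and AP-2 have long purple bars, and Sox, Fgf and Hedgehog have none.

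Among the factor lists, Hox and Forkhead, the longest ones, had most genes by count under both cell types' peaks. As shares these were 59.0% of Hox and 30.2% of forkhead genes, against 60% of Zic and of AP-2 genes. Forkhead also had the lowest share of the factor lists under ESC peaks, 46.5%. Of all genes 7.04% were under ESC peaks and 1.17% under both. For Hox genes 37 of 39 were under ESC peaks and 23 of those under NSC peaks. For forkhead genes, regulators of many lineages, the numbers were 20 of 43 and 13, among them Foxd1 with 8200 bp in ESCs and 18200 bp in NSCs. Gata genes of blood and endoderm had 4 and 3, with Gata3 at 21200 bp in ESCs and 2400 bp in NSCs. In the LIM homeobox list, which specifies neuron subtypes, 10 of 12 were under ESC peaks and 6 under both, such as Lmx1b (16400 bp and 7600 bp) and Isl1 (12600 bp and 6400 bp). Nkx genes of ventral and foregut fates had 11 of 14 and 6, with Nkx2-1 at 15600 bp and 8200 bp.
Pax2, Pax5, Pax1 and Pax3 were under both lists, whereas Pax6, Pax7, Pax9 and Pax8 were under ESC peaks alone. Pax3, a dorsal neural tube and neural crest factor, had 16400 bp in ESCs and 2400 bp in NSCs. Pax6, a factor of neural progenitors, had 24000 bp in ESCs and no NSC peak at its start. All 5 AP-2 genes, listed under the older symbols Tcfap2a to Tcfap2e, were under ESC peaks, and at Tcfap2a the peaks were 13600 bp in ESCs and 12400 bp in NSCs, with 8600 bp under both. Among proneural bHLH factors, which drive neuron formation, Neurog2 (11000 bp and 14200 bp), Atoh1, Neurod2 and Bhlhe22 were under both, and Olig2, Ptf1a and Neurog1 were among the 8 under ESC peaks alone.

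Sox genes differed in their counts from the other factor lists. Start sites of 12 of 18 Sox genes were under ESC peaks, with a median width of 5100 bp against 9200 bp for all the listed factors. Under an NSC peak there were 0, beside 1.74% of all genes. Sox was the only factor list with none, and the part of peak width in this was not tested. The widest were at Sox14 (11000 bp), Sox6 (10800 bp), and Sox17 and Sox21 (8400 bp each). The peaks of 2 of the 12 met an NSC peak away from the start. At Sox14 7000 of the 11000 bp lay under an NSC peak of 7400 bp, and at Sox17, an endoderm factor, 1200 bp of 8400 bp did. In the Irx list 6 of 6 were under ESC peaks and only Irx5 was under both, and in the T-box list the numbers were 11 of 16 and 3, namely Tbx18, Eomes and Tbx15.

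Except for the clustered protocadherins (0 of 24), genes for signals and neuronal functions were under ESC peaks in larger shares than all genes (7.04%). The shares ran from 25.5% of the receptors to 84.2% of the Wnt ligands. With the protocadherins counted, 9 of 328 (2.74%) were under NSC peaks, beside 1.74% of all genes. Of the Wnt ligands 16 of 19 were under ESC peaks and 1 of those, Wnt2b, was also under an NSC peak. For the Fgf list 8 of 22 were under ESC peaks and 0 of those under NSC peaks, and for the Hedgehog list 5 of 10 and 0, with Shh at 11200 bp. Potassium channels had 25 of 93 and 1 (Kcnj4), axon guidance genes 26 of 71 and 2 (Sema5b and Nrp2), glutamate, GABA and glycine receptors 14 of 55 and 1 (Grm8), and TGF-beta ligands 10 of 34 and 1 (Inhbb). In all, 6 of the 104 genes of these lists under ESC peaks were also under an NSC peak (5.77%, 2.15% to 12.1%). Their ESC peaks had a median width of 3000 bp, against 9200 bp for the transcription factors and 2400 bp for the remaining genes. At 2000 to 4800 bp 7.35% of 68 were under both, beside 12.8% of 39 transcription factors and 11.5% of 693 remaining genes in that range. At 5000 to 9800 bp it was 1 of 15 (6.67%, 0.169% to 31.9%), beside 49.1% and 23.4%.
The start sites of Wnt16, Fgf18 and Epha7 were under NSC peaks alone. The NSC peak at Epha7, an ephrin receptor, was 7200 bp wide, overlapped NSC H3K27me3 and contained an ESC peak of 2800 bp that did not reach the start, and those at Wnt16 and Fgf18 were 1000 bp and 1600 bp.
The remaining lists were mixed, beside 7.04% of all genes under ESC peaks and 1.74% under NSC peaks. Start sites of 12 of 43 collagen genes (27.9%) were under ESC peaks and 0 under NSC peaks. Of the 18 germline genes 10 (55.6%) were under ESC peaks, and Stag3 and Tdrkh (11.1%) were under both. Zfp genes had 9 of 361 under ESC peaks (2.49%), below the share of all genes, and 8 under NSC peaks (2.22%), near it. Ribosomal proteins, olfactory receptors, histones and clustered protocadherins had 0 under either list.

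Genes that mark neural stem cells were under ESC peaks alone in a larger share (52.4%) than all genes (5.87%). Of 21 annotated names 11 were so, among them Pax6 (24000 bp), Olig2 (11600 bp), Sox9 (7000 bp), Sox3 (6200 bp), Olig1 (3200 bp), Nes (2600 bp), Hes5 (2200 bp), Prom1 (2000 bp), Egfr (1800 bp) and Msi1 (1600 bp). Hes1, a Notch target that restrains neuron formation, was the only one under an NSC peak alone (4.76%, beside 0.567% of all genes). Its peak was 2200 bp wide and without NSC H3K27me3. Fabp7, Gfap, Nfia, Nfib, Notch1, Ptprz1, Slc1a3, Sox2 and Vim had no peak at the start in either list. Of 21 pluripotency genes Tbx3 (14000 bp) and Prdm14 (2800 bp) were under ESC peaks alone. The other 19, with Pou5f1, Nanog, Sox2, Klf4, Esrrb and Zfp42 among them, had no peak at the start in ESCs or in NSCs. The pluripotency shares, 9.52% under ESC peaks and 0 under NSC peaks, were near those of all genes (7.04% and 1.74%).

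By their start sites, 4 of 28 Polycomb genes were under ESC peaks alone, 4 under NSC peaks alone and 0 under both. Over all genes the shares were 5.87%, 0.567% and 1.17% in the same order. Bmi1 (29600 bp), Cbx8 (26200 bp) and Phf19 (1000 bp) were among those under ESC peaks alone, although the Bmi1 and Cbx8 peaks met an NSC peak away from the start. Bmi1 encodes a PCGF subunit of PRC1, Cbx8 a reader of H3K27me3, and Phf19 an accessory subunit of PRC2. Under NSC peaks alone were Pcgf2 and Rybp (1800 bp each) and Pcgf1 and Pcgf6 (1400 bp each). These encode alternative PCGF subunits and RYBP, a subunit of the variant PRC1 complexes. None of the 4 NSC peaks overlapped NSC H3K27me3.
Of the CDK inhibitors, which arrest the cell cycle, Cdkn1c and Cdkn2a (3400 bp each) and Cdkn2c (3000 bp) were under ESC peaks alone, 3 of 7 against 7.04% of all genes. The 0 of 7 under NSC peaks stands beside a share of 1.74% of all genes.

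Of the 10 widest ESC only peaks 8 held a protein-coding start site. These were Nr2f2 (27800 bp), Pax6 (24000 bp), Pou3f2 (22800 bp), Hoxa2 with 5730596B20Rik (20400 bp), Hlx (19800 bp), Onecut3 (19600 bp), Nkx2-2 (17400 bp) and Meis2 (17200 bp). Another of 21000 bp, 29552 bp from the start of Polg, held the start of the lincRNA AI854517, and 1 of 18400 bp lay 11242 bp from the start of Nfix. All 10 overlapped ESC H3K27me3 and only that at Onecut3 overlapped NSC H3K27me3. The nearest NSC Ring1b peak was between 36000 bp (Hoxa2) and 2625600 bp (Meis2) away.
MicroRNA genes were tallied after the other results were seen. Of 1568 annotated names, 31 were under ESC peaks alone, 10 under both and 1 under NSC peaks alone. Each is a smaller share than among protein-coding names (5.87%, 1.17% and 0.567% in the same order). Mir124a-1 and Mir124a-3, genes of a neuronal microRNA, had their starts under ESC peaks of 4800 bp each and under no NSC peak, although 2000 bp of the Mir124a-1 peak lay under an NSC peak. Within the Hox clusters Mir10a (25800 bp in ESCs, 5600 bp in NSCs) and Mir196b (59000 bp and 18200 bp) were under both, and the start of Mir196a-2 was under an ESC peak alone, in a shared region of 35400 bp of which 27400 bp lay under NSC peaks. The mature sequences from RefSeq (GRCm38.p6), with the seed of bases 2 to 8 in capitals, show that miR-196a-5p and miR-196b-5p have the same seed, AGGUAGU.
mmu-miR-10a-5p: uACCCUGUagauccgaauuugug
mmu-miR-196a-5p: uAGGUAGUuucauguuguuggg
mmu-miR-196b-5p: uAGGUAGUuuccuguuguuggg

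The other PcG lists met the classes unequally. In ESCs 57.3% (55.1% to 59.6%) of ESC only and 71.8% (67.4% to 75.9%) of ESC shared peaks overlapped H3K27me3. For Ezh2 the shares were 34.3% and 59.5%, and for Cbx2 11.2% and 47.5%. NSC H3K27me3 overlapped 17.4% (15.7% to 19.2%) of ESC only, 59.7% (55.1% to 64.3%) of ESC shared and 56.3% (51.8% to 60.7%) of NSC shared peaks. ESC shared peaks were also wider (median 4000 bp against 2200 bp), and the part of width in these shares was not tested. Of NSC only peaks 1.12% lay at ESC H3K27me3, 0.337% at Ezh2, 0.899% at Cbx2 and 11.7% (9.65% to 14.0%) at NSC H3K27me3.
The shared regions with NSC H3K27me3, 260 of 439, held 83.7% of the shared bases. Their median coverage was 6800 bp in ESCs and 4000 bp in NSCs, against 2400 bp and 1600 bp in the 179 regions without the mark.

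**Figure D5:**
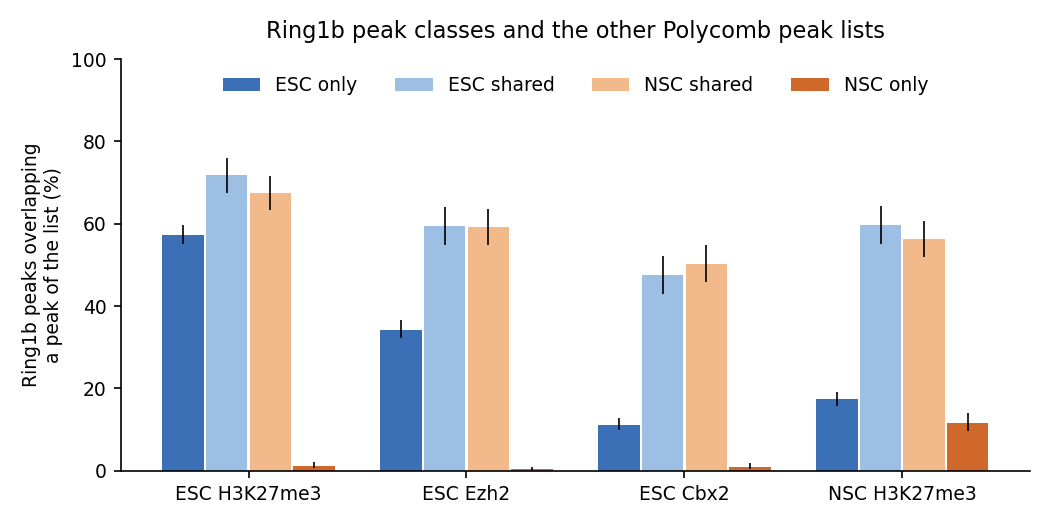
Share of the Ring1b peaks of each class, in percent, that overlap a peak of H3K27me3, Ezh2 or Cbx2 in ESCs or of H3K27me3 in NSCs. Bars are shares and lines are 95% Clopper-Pearson intervals. Shared peaks reach 47.5% to 71.8% in every list, and NSC only peaks stay at or below 11.7%.

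NSC only peaks were of several kinds. The wide ones carried NSC H3K27me3 and the narrow ones mostly did not. The mark overlapped 9 of 345 peaks of 1000 bp (2.61%), 22 of 381 at 1200 to 1800 bp (5.77%), 39 of 121 at 2000 to 4800 bp (32.2%), 22 of 31 at 5000 to 9800 bp (71.0%) and 12 of 12 from 10000 bp. The 104 NSC only peaks with the mark had a median GC content of 37.0%, and 16 held a start site. Their GC content was thus below that of the genome (41.8%) and far below that of NSC shared peaks (54.4%).
The widest were spread over several loci. Over part of 4930447C04Rik lay a peak of 26000 bp, 49531 bp from the start of Six6 (chr12:73965401-73991400), and one of 24400 bp, 22931 bp from it (chr12:73993601-74018000), the latter 22200 bp from the closest ESC peak. Another 24400 bp lay on chromosome X, 33615 bp from the nearest start, and Stxbp5l held 20800 bp and 12000 bp. Others were at Igf2bp1 (14400 bp, chr11:95861001-95875400), at Plag1 and Chchd7 (12600 bp, chr4:3854801-3867400), in an intron of Lin28b (12200 bp), 13712 bp from the start of Igf1r (14400 bp) and 20679 bp from that of Hsd17b12 (20600 bp). Lin28b and Igf2bp1 encode RNA-binding proteins of embryonic growth, Plag1 a zinc finger factor, and Igf1r the receptor of insulin-like growth factor 1.

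In a few genes NSC only peaks recurred along the gene body, a tally made after the peaks had been seen. Among protein-coding gene bodies, 319 met 1 NSC only peak, 19 met 2, 3 met 3 and 7 met 4 or more. Foxp2 (chr6:14851349-15391977, plus strand), a forkhead factor of neurons, held 16 with widths of 1000 to 5200 bp, and 2 of them overlapped NSC H3K27me3. Stxbp5l (chr16:37115028-37385048, minus strand), a syntaxin-binding protein gene, met 14, which covered 68800 bp or 25.5% of the gene, and 9 of them overlapped the mark. The widest, of 20800 bp, ended 847 bp from the start site and also overlapped ESC H3K27me3. GC content ran from 26.9% to 36.3% in the Stxbp5l peaks and from 29.2% to 43.7% in the Foxp2 peaks. No ESC Ring1b peak lay in Stxbp5l and 1 in Foxp2. Iqch had 7 and Fam5c 6, and no ESC peak lay in either.

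A second kind of NSC only peak was at CpG-rich starts. The 111 with a start site had a median GC content of 58.3%, a CpG ratio of 0.765 and a width of 1400 bp, and 16 overlapped NSC H3K27me3 (14.4%). Of the 126 genes under NSC peaks alone, 29 had a peak of 1000 bp and 9 a peak of at least 5000 bp. The 9 were Igf2bp1, Plag1 and Chchd7 (above), Apoo (7400 bp) and Epha7, whose NSC peaks each met an ESC peak away from the start and so were shared, 2300009A05Rik (8200 bp), Rictor (6200 bp), Gjc1 (5600 bp) and Gpr85 (5200 bp). These wide peaks were not of the CpG-rich kind. Their GC content ran from 40.5% (2300009A05Rik) to 49.4% (Gjc1), below the median of 58.3% above. All but those at 2300009A05Rik and Apoo overlapped NSC H3K27me3.
The remaining 691, with no start site and no NSC H3K27me3, had a median width of 1200 bp and a median GC content of 39.8%, and 44.7% of them were at the smallest width. Sampled words of 32 bases were found at a single place in the genome in 81.3% of cases on average, and in 106 peaks (15.3%) in fewer than 50%. The mean was 97.8% in ESC only, 97.8% in ESC shared and 98.0% in NSC shared peaks, 96.8% in NSC only peaks with a start site and 95.5% in those with NSC H3K27me3. Of the widest NSC only peaks, the 24400 bp one on chromosome X (chrX:123292601-123317000) had 54.5% of such unique words, and the other 11 of the 12 widest 92.2% to 99.2%. The part of repeated sequence in these calls was not tested.
Chromosome X held 109 of the 890 NSC only peaks (12.2%) and 3.14% of ESC only peaks. That is 0.673 NSC only peaks per Mb, against 0.326 on the autosomes together and 0.171 to 0.516 on single autosomes. Of the 118 NSC peaks on X 9 were shared (7.63%, 3.55% to 14.0%). The NSC only peaks on X had a median width of 1200 bp, 3 overlapped NSC H3K27me3, and a mean of 78.3% of their words occurred once. Without X the share of NSC peaks with an ESC counterpart was 38.6% in place of 35.9%.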

How the data were processed

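Ring1b was measured by ChIP-seq in ESCs and NSCs, 1 library each. The authors deposited peak starts and ends on mm9 without heights. Per the paper they mapped tags with Bowtie (the submitters' processing notes name BWA), compared tag counts in 1 kb windows every 200 bp with input by a negative binomial distribution, and merged enriched windows lying close together. Depth is unknown. The 4 inputs were not analysed here, and no per-sample columns of other series were found (0).

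Overlaps were found with scripts (Python 3.11.15, using scipy 1.17.1, numpy 2.4.6 and matplotlib 3.10.9 for figures) that were tested on simulated intervals and checked against bedtools 2.31.1, which gave the same 1878 ESC only and 890 NSC only peaks. Start sites are the 5′ ends of protein-coding genes of GENCODE vM1 on NCBIM37, which is mm9. Gene names count once. Sox1 was not analysed here. Words of 32 bases were taken every 50 bp. A gene under both lists has a start site in a peak of each.

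Members and the 36 gene lists were chosen with earlier results of these data known. Named genes were those in the 10 widest ESC only and NSC only peaks and the 10 regions with most shared bases, the 5 largest gains and losses, in each list the genes with an NSC peak if 10 or fewer and otherwise the 4 widest, the 4 widest under ESC peaks alone, and all pluripotency and neural stem cell genes. Genes in other tallies were named after their values were seen. A few items that the rule names are not reported here. Sequences came from the widest peak or region of each class outside chromosome 18.

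Alternatives were an overlap of 50% of the shorter peak, peaks at least 2 kb wide, merging within 3 kb, autosomes alone, start sites within 1 kb or 5 kb, any transcript start, all annotated genes, 1 kb centred on each peak, and other lists within 1 kb.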

Additional observations from a re-analysis of the deposited data

How the results depend on the processing

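Of 230 recomputed values 173 stayed within the interval of the reported value or, for counts, within 1.5 times it, and most of the others moved when all lists were restricted to peaks at least 2 kb wide. That left 1242 ESC only, 230 ESC shared, 250 NSC shared and 185 NSC only peaks, so that 15.6% of ESC and 57.5% of NSC peaks were shared, and 166 genes were under both lists and 33 under NSC peaks alone. Median widths became 2800, 7200, 4400 and 3000 bp, and median GC content 58.2%, 52.2%, 51.3% and 37.0%, in the order ESC only, ESC shared, NSC shared, NSC only. The median log2 ratio of shared regions was -0.36. Within 1 kb of a start site were 74.6% of ESC only and 21.6% of NSC only peaks. ESC H3K27me3 met 41.9% of ESC only and 63.9% of ESC shared peaks, and NSC H3K27me3 met 13.7%, 75.2%, 72.4% and 24.9% of the 4 classes. The order of ESC only and NSC only peaks was thereby exchanged for median width and for NSC H3K27me3.
Start sites of all annotated genes were within 1 kb of 75.03% of ESC only, 68.9% of NSC shared and 22.2% of NSC only peaks. Within 5 kb of protein-coding starts were 76.6% of ESC only, 78.3% of ESC shared, 77.0% of NSC shared and 26.7% of NSC only peaks, which put NSC shared above ESC only. With peaks merged across 3 kb, 78.8% of ESC shared and 67.5% of NSC shared peaks were within 1 kb. On autosomes alone 38.6% of NSC peaks were shared. In the central 1 kb, median GC content was 63.3% in ESC only, 58.1% in ESC shared and 56.4% in NSC shared peaks. With H3K27me3 counted within 1 kb, 14.0% of NSC only peaks had it in NSCs.
No paired analysis was possible because each cell type had 1 library. Without heights or read counts, weak binding below threshold cannot be told from none, and unequal depth of the libraries cannot be told from a difference in binding.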
